A study of Homo sapiens with 6 samples.

Results

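The RAB GTPases are the small G proteins that mark the membranes of the secretory and endocytic pathways. Their transcripts were compared between HaCaT cells labelled as normal control (genotype WT, 3 libraries) and HaCaT cells with a hairpin directed at IQGAP2 (genotype IQGAP2 knockdown, 3 libraries). HaCaT is an aneuploid, immortalised line of human keratinocytes, and IQGAP2 is a scaffold protein that binds actin and calmodulin. The titles number the 3 libraries of each group as biological replicates. They do not say how these replicates were grown, whether the controls had a hairpin of their own, or how many hairpins or clones were used. The p-values below therefore reflect the scatter of these libraries alone, and which part of it arose between cultures is not stated. A gene was taken as a RAB gene when its symbol in the deposited table was RAB followed by a number and at most 1 letter. This gave 52 of the 12829 genes in the table, and 46 of them reached the mean of 0.5 FPKM (fragments per kilobase of gene, scaled to the size of the library) over the 6 libraries that was required for testing. The 52 genes were placed by the best known site of action of their proteins: 16 at the ER and Golgi, 12 at early and late endosomes, 10 in endosomal recycling, 10 in secretion and transport to the cell surface, and 4 elsewhere.

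A RAB protein cycles between a GTP-bound form on the membrane, where it recruits tethers, motors and other effectors, and a GDP-bound form that is extracted into the cytosol. Exchange factors load GTP, proteins with a TBC domain speed its hydrolysis, and prenyl groups added with the help of a RAB escort protein anchor the molecule. In keratinocytes this traffic delivers adhesion receptors and growth factor receptors to and from the surface, carries lamellar granules to be secreted during cornification, and receives melanosomes from melanocytes.

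Whole reads recovered from the FPKM values summed to between 12901037 and 15360759 per library. Knockdown replicate 2 stood apart from knockdown replicates 1 and 3, with reads that gave a chi-square divided by its degrees of freedom of 11.3 and 10.5 against these, while control pairs gave 2.10 to 2.49. The hairpin's target, IQGAP2, was listed at 0.200, 0.198 and 0.190 FPKM in control replicates 1, 2 and 3 and at 0.0196, 0.0328 and 0.0182 FPKM in knockdown replicates 1, 2 and 3. These values rest on 24, 22 and 21 reads in the controls and 2, 4 and 2 reads after knockdown. IQGAP2 thus lay under the filter of 0.5 FPKM and was not tested. All 8 keratinocyte markers were present, at a summed 4999 to 5107 FPKM in the controls and 5213 to 5615 FPKM after knockdown. These sums are mostly KRT14 and KRT5, and the markers did not move together: S100A2 fell from a mean of 262 to 161 FPKM, and DSG3 rose from 50.3 to 106 FPKM and COL17A1 from 125 to 260.2 FPKM. Of the melanocyte, fibroblast, leukocyte and endothelial markers, 2 of 7, 3 of 6, 1 of 7 and 2 of 4 had a row in the table, with summed levels of at most 1.28, 3.79, 0.557 and 0.484 FPKM in any library. The fibroblast sum (COL1A1, DCN and LUM) was 3.46 to 3.79 FPKM in the controls and 1.56 to 1.91 FPKM after knockdown, and its part in the results below was not tested. LUM carried this fall, from a mean of 2.21 to 0.268 FPKM, while COL1A1 was at 1.24 and 1.44 FPKM and did not pass. In a bulk library a change in the number of cells of some type and a change in the transcript per cell cannot be told apart.

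RAB transcripts moved in both directions, most of them by less than 2-fold. Of 46 tested, 16 rose and 13 fell after knockdown by limma with an adjusted p under 0.05, against 29.5% higher and 27.8% lower, together 57.4%, of all 11214 genes tested. The RAB share was 34.8% higher and 28.3% lower, so it lay near that of the transcriptome. The groups did not overlap for 31 of the 46, against 65.1% of all genes. Changes are given throughout as log2(FPKM + 1) after knockdown less that in the controls. Their median was 0.03 for RAB genes and 0.01 for all genes, and only RAB3A changed by more than 2-fold on that scale. The added 1 understates the change of low genes: the ratio of the mean FPKM after knockdown to that in the controls was 0.231 for RAB3A, 0.394 for RAB41 and 0.475 for RAB7B, and voom on the recovered reads gave log2 changes of -2.10, -1.28 and -1.06. Rescaling each library to a common FPKM sum moved the median of all genes by 0.13 and gave 23 higher and 9 lower RAB genes, against 43.4% and 16.4% of all genes. Rises then made up 71.9% of the RAB calls in place of 55.2%, and 72.6% of all calls in place of 51.5%. A small fall can thus be a fall only on the deposited scale. RAB7A, RAB11A, RAB29 and RAB40C, with changes of -0.19, -0.25, -0.24 and -0.28 there, were not called with a common sum. No called RAB gene changed sign in any of the 15 alternative settings, and 19 of the 29 calls (11 higher, 8 lower) were made in each of them that kept the gene. The same counts over all called genes were not computed, so these are not a result about RAB genes.

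**Figure D1:**
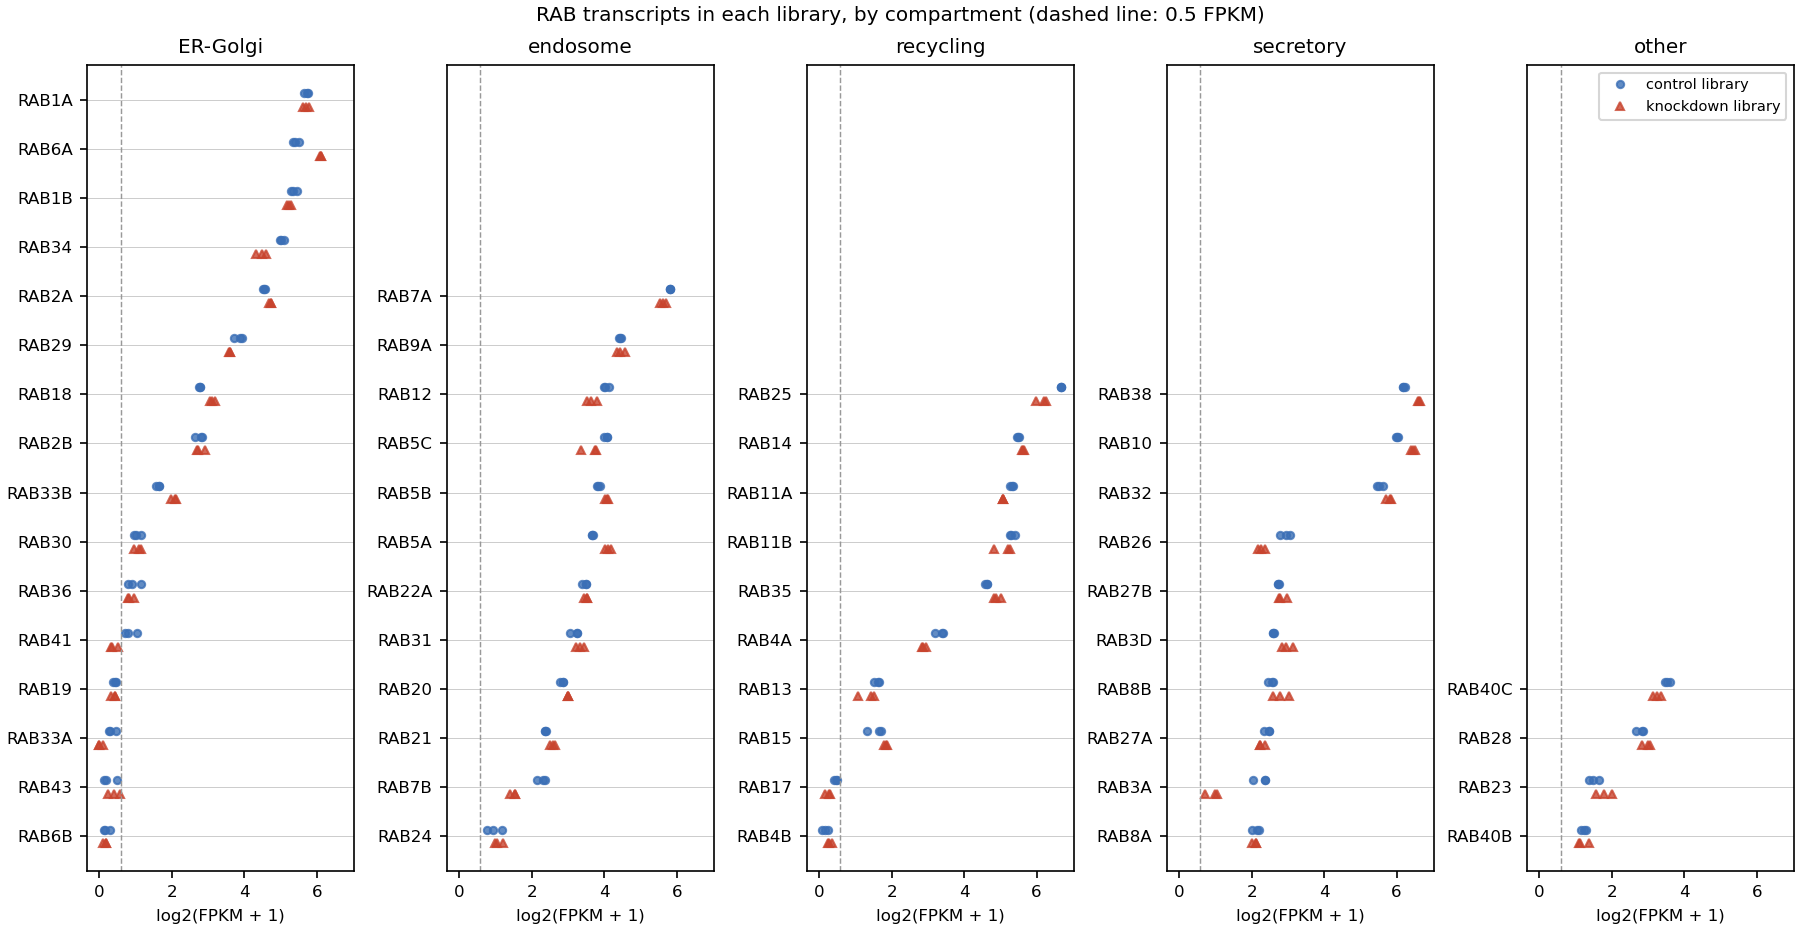
Level of each of the 52 RAB transcripts in the 3 control (blue circles) and 3 knockdown (red triangles) libraries, as log2(FPKM + 1), grouped by compartment and ordered by the control mean; the dashed line marks 0.5 FPKM. RAB25, RAB38 and RAB10 stand highest among the controls, and RAB3A, RAB7B, RAB25 and RAB6A show groups that do not overlap.

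**Figure D2:**
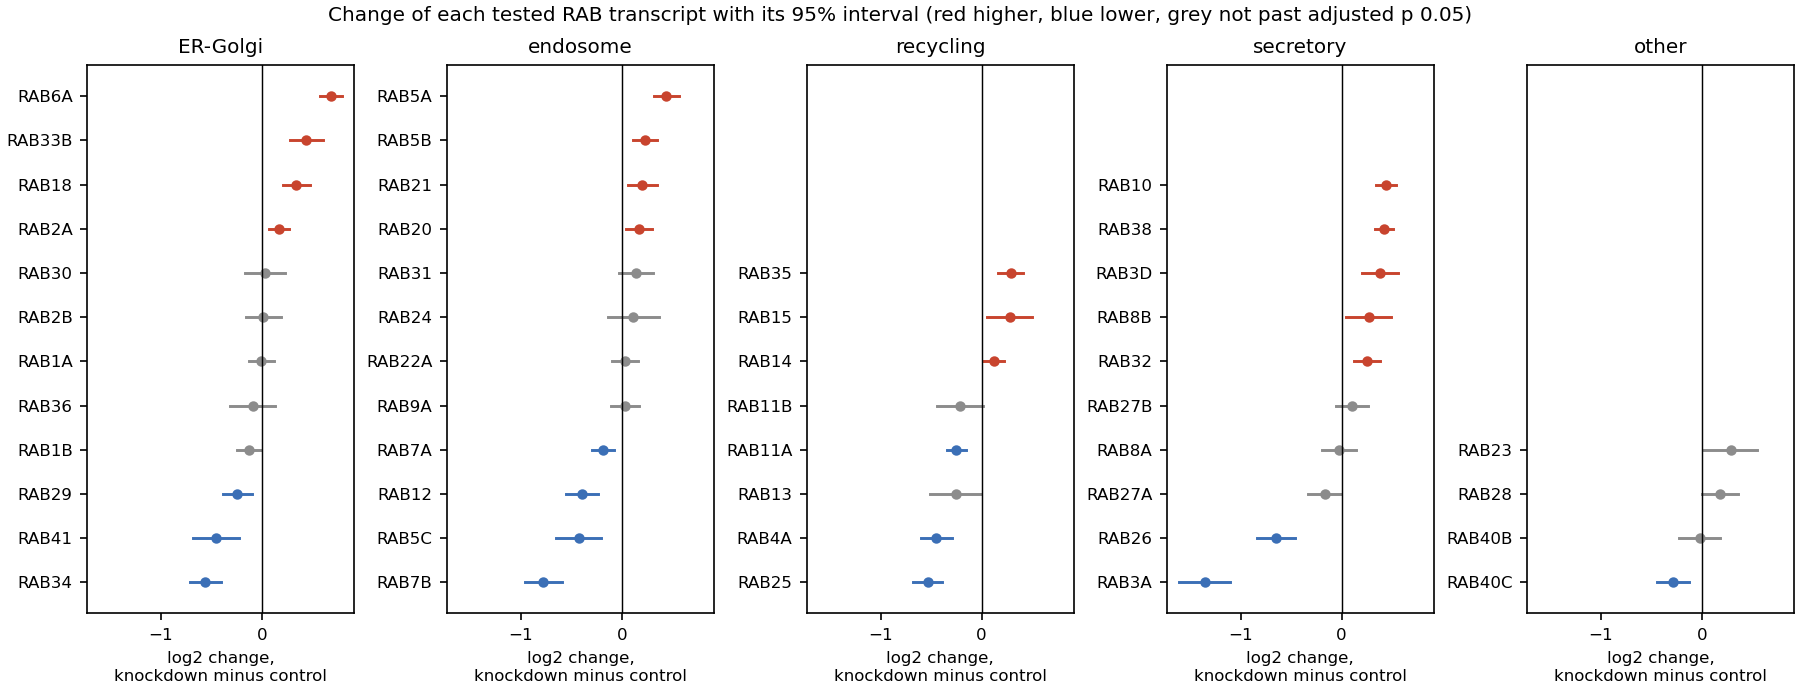
Log2 change (knockdown minus control, log2(FPKM + 1)) of the 46 tested RAB transcripts with the 95% interval of limma, by compartment; red and blue mark genes past an adjusted p of 0.05 as higher and lower, grey the others. Each compartment but the last holds both rises and falls, with RAB6A at 0.68 the highest and RAB3A at -1.36 the lowest.

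At the ER and Golgi, 4 of 12 tested genes were higher and 3 lower (33.3% and 25.0%, beside 29.5% and 27.8% of all genes; median change 0.01). RAB6A, which acts in retrograde transport to and through the Golgi and in the release of carriers from the trans-Golgi, rose more than any other RAB gene. RAB6A (ENSG00000175582, GRCh38 chromosome 11, 73675638 to 73761137, minus strand) was at 40.0, 44.2 and 41.2 FPKM in control replicates 1, 2 and 3 and at 67.8, 67.6 and 67.8 FPKM in the knockdown replicates. Every knockdown library lay above every control library, with means of 41.8 ± 2.18 and 67.7 ± 0.121 FPKM (SD, n = 3 for this and every other mean) and a log2 change of 0.68 (SE 0.0479, limma adjusted p = 2.90e-06). Reads of the retrocopy RAB6C, which is not among the 52, could have been counted with RAB6A, since the counting is not given in the sources used here. RAB33B, a Golgi RAB with a role in autophagosome formation, was at 1.98, 2.15 and 2.11 FPKM in the controls and 3.28, 2.95 and 3.33 FPKM after knockdown, a rise of 0.44 (adjusted p = 5.32e-04). RAB18, found on the ER and on lipid droplets, was at 5.81, 5.76 and 5.89 FPKM in the controls and 7.60, 8.08 and 7.28 FPKM after knockdown, again with no overlap (change 0.34, adjusted p = 8.95e-04). RAB2A, needed between the ER and the Golgi and for the maturation of late endosomes, rose less, from 21.9, 22.6 and 22.2 FPKM to 25.5, 25.6 and 24.5 FPKM (change 0.17, adjusted p = 0.00796).

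The falls at the Golgi were those of RAB34, RAB41 and RAB29. RAB34, which works at the Golgi, in the positioning of lysosomes and in the assembly of cilia, was at 30.8, 31.3 and 33.1 FPKM in the controls and 23.3, 19.0 and 21.6 FPKM after knockdown (change -0.56, SE 0.0693, adjusted p = 1.01e-04). RAB41, a Golgi RAB of the RAB6 group, was near the filter, at 0.732, 1.05 and 0.635 FPKM against 0.286, 0.240 and 0.427 FPKM, which rests on 12 to 20 reads per control and 5 to 8 reads per knockdown library (change -0.45, adjusted p = 0.00373). The voom change of RAB41 was -1.28, a ratio of 0.394 between the mean FPKM values. With the trend of change over gene length removed, its change was -0.24 (adjusted p = 0.0595, range over all alternatives 0.00303 to 0.0595). RAB29, which recruits the kinase LRRK2 to the trans-Golgi, was at 12.1, 14.4 and 13.6 FPKM in the controls and 11.3, 11.3 and 10.9 FPKM after knockdown (change -0.24, adjusted p = 0.00975). With a common sum the change of RAB29 was -0.09 (adjusted p = 0.298, range over all alternatives 0.00422 to 0.298).

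The most abundant gene of the group in the controls, RAB1A, which drives transport from the ER to the Golgi, showed no difference past the test. RAB1A was at 53.1, 51.8 and 48.8 FPKM in the controls and 53.7, 48.1 and 51.6 FPKM after knockdown, and the groups overlapped (change -0.00, 95% interval -0.12 to 0.12, adjusted p = 0.951). With a common sum RAB1A was called higher, at 0.16 (adjusted p = 0.0169, range over all alternatives 0.0169 to 0.971). Its partner RAB1B was at 38.1, 39.3 and 42.5 FPKM in the controls and 35.1, 37.8 and 36.4 FPKM after knockdown, and these groups did not overlap (change -0.13, adjusted p = 0.0576). RAB1B passed only without knockdown replicate 2 (change -0.16, adjusted p = 0.0190, range over all alternatives 0.0190 to 0.673). RAB2B, RAB30 and RAB36 had changes between -0.09 and 0.03 and did not pass.

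At endosomes, 4 of 12 genes were higher and 4 lower (33.3% each, beside 29.5% and 27.8% of all genes; median change 0.07), and leaving out any control library left 2 higher. The RAB5 genes went both ways, and the RAB7 pair was lower. RAB5 proteins drive the fusion of early endosomes, and the family has 3 members that share most of their effectors. RAB5A (ENSG00000144566, GRCh38 chromosome 3, 19947079 to 19985175, plus strand) was at 11.7, 11.6 and 11.8 FPKM in the controls and 15.3, 17.3 and 16.1 FPKM after knockdown (change 0.44, SE 0.0561, adjusted p = 1.13e-04). RAB5B was at 12.8, 13.3 and 13.7 FPKM in the controls and 15.2, 15.7 and 16.3 FPKM after knockdown (change 0.23, adjusted p = 0.00424). RAB5C (ENSG00000108774, GRCh38 chromosome 17, 42124976 to 42155044, minus strand) went the other way, from 14.9, 16.0 and 15.8 FPKM to 12.4, 9.23 and 12.7 FPKM (change -0.43, SE 0.0991, adjusted p = 0.00433). None of the 3 had overlapping groups, and knockdown replicate 2 was the highest for RAB5A and the lowest for RAB5C. Without that library the changes were 0.40 for RAB5A and -0.29 for RAB5C. In GENCODE v29, 28.8% of the exon length of RAB5C is shared with AC099811.2, a coding gene on the same strand, and how such reads were counted is not given in the sources used here.

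Since the family split between its members, the promoters of the RAB5 genes are shown, from 250 bases before to 50 bases after the RefSeq start (GRCh38.p14). RAB5A is at chr3:19946847-19947146 on the plus strand, RAB5B at chr12:55973699-55973998 on the plus strand and RAB5C at chr17:42154940-42155239 on the minus strand. Capitals mark the GC box, GGGCGG on either strand with overlapping matches counted, and the first start was used where several are listed.
RAB5A: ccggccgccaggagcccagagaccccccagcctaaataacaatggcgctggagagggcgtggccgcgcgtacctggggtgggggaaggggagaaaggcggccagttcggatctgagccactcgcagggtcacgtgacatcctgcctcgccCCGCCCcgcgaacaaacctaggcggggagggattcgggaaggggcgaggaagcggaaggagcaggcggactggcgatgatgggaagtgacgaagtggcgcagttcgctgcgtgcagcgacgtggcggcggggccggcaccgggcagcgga
RAB5B: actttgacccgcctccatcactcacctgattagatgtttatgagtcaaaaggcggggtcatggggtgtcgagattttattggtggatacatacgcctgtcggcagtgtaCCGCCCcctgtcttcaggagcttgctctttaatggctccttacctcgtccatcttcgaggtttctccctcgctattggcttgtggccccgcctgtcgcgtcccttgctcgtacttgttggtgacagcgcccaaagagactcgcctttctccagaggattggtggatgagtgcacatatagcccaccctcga
RAB5C: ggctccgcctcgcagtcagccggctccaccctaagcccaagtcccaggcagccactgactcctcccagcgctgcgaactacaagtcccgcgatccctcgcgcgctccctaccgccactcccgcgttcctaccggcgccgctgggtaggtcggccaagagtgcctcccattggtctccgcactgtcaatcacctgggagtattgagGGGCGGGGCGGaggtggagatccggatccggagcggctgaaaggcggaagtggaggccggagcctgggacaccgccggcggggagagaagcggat
RAB5A and RAB5B each held 1 GC box, which began at position -100 from the start in RAB5A and at -141 in RAB5B, and RAB5C held 2 that overlap, which began at -45 and -40. The motif was in 34 of the 42 RAB promoters that had an entry (81.0%), in 71.4% of the promoters of genes tested here and in 44.6% of all promoters in the table. It was in 10 of 11 promoters of RAB genes called higher and in 6 of 11 of those called lower, and in 14 of 15 of those not called. These matches are a description of the letters only.

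The RAB7 pair of late endosomes and lysosomes was lower in both members. RAB7A, which governs the maturation of late endosomes and their fusion with lysosomes, was the most abundant endosomal RAB, at 55.3, 55.1 and 55.1 FPKM in the controls and 48.2, 45.6 and 51.1 FPKM after knockdown (change -0.19, adjusted p = 0.00803). This small fall did not pass with a common sum (change -0.03, adjusted p = 0.642) or with the length trend removed (-0.07, adjusted p = 0.194), and its range over all alternatives was 0.00328 to 0.642. The exon length used for RAB7A, 2717 bases, is shorter than its reads imply, so its change with that trend removed is uncertain. In control replicate 1 RAB7A had 6061 reads at 55.3 FPKM, and RAB1A, at 3312 bases, had 2684 reads at 53.1 FPKM. RAB7B (ENSG00000276600, GRCh38 chromosome 1, 205976740 to 206003461, minus strand), which acts between late endosomes and the trans-Golgi, fell further, from 3.40, 4.17 and 3.95 FPKM to 1.65, 1.91 and 1.91 FPKM (change -0.78, SE 0.0833, adjusted p = 4.17e-05). RAB12, which sends transferrin receptor from recycling endosomes to lysosomes, was at 15.1, 15.3 and 16.5 FPKM in the controls and 11.5, 10.6 and 12.8 FPKM after knockdown (change -0.40, adjusted p = 9.45e-04). All 3 of these genes had knockdown libraries below every control library.

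RAB21 and RAB20 were slightly higher. RAB21, which directs the endocytosis and recycling of integrins, was at 4.24, 4.20 and 4.14 FPKM in the controls and 4.72, 5.27 and 4.96 FPKM after knockdown (change 0.20, adjusted p = 0.0216). RAB21 has the longest exon sequence of the RAB genes, 16036 bases, and with the length trend removed its change was 0.01 (adjusted p = 0.877, range over all alternatives 0.00311 to 0.877). Leaving out any control library also ended the call (adjusted p 0.0539 to 0.0703). RAB20, a RAB of phagosomes and of hypoxic cells, was at 6.22, 5.82 and 6.23 FPKM in the controls and 6.99, 6.94 and 7.05 FPKM after knockdown (change 0.17, adjusted p = 0.0270). The RAB20 call was lost with quantile normalization, with voom, and without any control library or knockdown replicate 1 or 3 (adjusted p up to 0.171, lowest over all alternatives 4.52e-04). RAB9A, RAB22A, RAB24 and RAB31 had changes of 0.03 to 0.14 and did not pass, with overlapping groups in each. RAB9A, which returns mannose 6-phosphate receptors from late endosomes to the Golgi, was called higher with the length trend removed (0.20, adjusted p = 0.0378). With a common sum RAB9A, RAB22A and RAB31 were called higher, at 0.19, 0.19 and 0.29 (adjusted p = 0.0397, 0.0377 and 0.0132).

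In the recycling group 3 of 8 tested genes were lower and 3 higher (37.5% each, beside 27.8% and 29.5% of all genes; median change -0.23), and the falls included its most abundant member. Without control replicate 1 or knockdown replicate 3 only 1 was higher. RAB25, an epithelial relative of RAB11 known for the apical recycling of receptors and the transport of integrins, had the highest control level of all RAB genes. RAB25 (ENSG00000132698, GRCh38 chromosome 1, 156061160 to 156070514, plus strand) was at 101, 102 and 101 FPKM in the controls and 72.6, 62.2 and 75.2 FPKM after knockdown. The knockdown libraries all lay below the controls, which hardly varied (change -0.54, SE 0.0659, adjusted p = 9.59e-05). RAB11A, the general RAB of the recycling endosome, was at 39.3, 37.8 and 39.6 FPKM in the controls and 32.7, 32.5 and 32.4 FPKM after knockdown (change -0.25, adjusted p = 7.42e-04). With a common sum its change was -0.09 (adjusted p = 0.145, range over all alternatives 2.37e-04 to 0.145). RAB11B was at 37.4, 38.1 and 40.9 FPKM in the controls and 37.5, 27.2 and 36.2 FPKM after knockdown, so that the groups overlapped and only knockdown replicate 2 was far below the controls (change -0.21, 95% interval -0.44 to 0.01, adjusted p = 0.0983). RAB11B passed without knockdown replicate 1 (change -0.30, adjusted p = 0.0324, range over all alternatives 0.0324 to 0.631). RAB4A, which takes receptors from early endosomes straight back to the surface, was at 9.45, 8.23 and 9.58 FPKM in the controls and 6.32, 6.11 and 6.72 FPKM after knockdown (change -0.45, adjusted p = 4.29e-04). In GENCODE v29, 19.6% of the RAB4A exon length is shared with SPHAR, a coding gene on the same strand. How such reads were counted is not given in the sources used here.

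RAB35, RAB15 and RAB14 were higher. RAB35, which returns cadherins and integrins to the plasma membrane, was at 23.7, 23.0 and 23.8 FPKM in the controls and 28.2, 31.3 and 27.2 FPKM after knockdown (change 0.29, adjusted p = 0.00186). RAB14, which acts between the Golgi, endosomes and the cell surface, was at 43.9, 43.2 and 44.9 FPKM in the controls and 46.9, 49.1 and 47.9 FPKM after knockdown (change 0.12, adjusted p = 0.0319). RAB15, which takes part in the recycling of transferrin receptor, was at 1.49, 2.24 and 2.13 FPKM in the controls and 2.63, 2.58 and 2.46 FPKM after knockdown (change 0.28, adjusted p = 0.0377). The RAB14 call was lost without any control library or knockdown replicate 3 (adjusted p 0.0623 to 0.120), and that of RAB15, whose voom change was 0.42, without control replicate 1, where the change was 0.16, with quantile normalization, or without any knockdown library (adjusted p 0.0581 to 0.135). RAB13, a RAB of tight junction assembly, was at 2.07, 1.83 and 2.12 FPKM in the controls and 1.71, 1.08 and 1.83 FPKM after knockdown, barely below the controls (change -0.26, adjusted p = 0.0775). RAB13 passed without knockdown replicate 3 (change -0.34, adjusted p = 0.0363, range over all alternatives 0.0363 to 0.274). It shares 24.8% of its exon length with AL358472.6, a coding gene on the same strand.

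In the secretory group 5 of 10 genes were higher and 2 lower (beside 29.5% and 27.8% of all genes; median change 0.18). The rises included its most abundant genes. RAB38, which traffics cargo to melanosomes and other lysosome-related organelles, was at 71.6, 74.3 and 71.7 FPKM in the controls and 98.9, 97.1 and 95.9 FPKM after knockdown (change 0.42, SE 0.0418, adjusted p = 2.58e-05). Its relative RAB32 was at 48.7, 42.9 and 45.0 FPKM in the controls and 55.7, 51.3 and 56.1 FPKM after knockdown (change 0.25, adjusted p = 0.00411). Neither pair of groups overlapped, and the melanocyte genes PMEL and MITF summed to 1.20 to 1.28 FPKM in the controls and 0.855 to 1.04 FPKM after knockdown. The melanocyte genes TYR, TYRP1, DCT, MLANA and SOX10 had no row and were not analysed here. RAB10, which carries basolateral cargo and glucose transporters to the surface, was at 63.6, 61.8 and 65.0 FPKM in the controls and 83.4, 89.9 and 86.3 FPKM after knockdown (change 0.44, SE 0.0460, adjusted p = 3.51e-05). RAB8B, of the same subfamily, was at 4.89, 4.47 and 5.01 FPKM in the controls and 5.02, 7.10 and 5.91 FPKM after knockdown (change 0.27, adjusted p = 0.0440). The lowest knockdown value of RAB8B barely cleared the highest control value. Its call was lost without any control library or knockdown replicate 3 (adjusted p 0.0686 to 0.136) and without knockdown replicate 2, where the change was 0.16 (adjusted p = 0.110). No filter and quantile normalization also ended it (0.0524 and 0.0539), and the range over all alternatives was 0.00662 to 0.136.

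The regulated secretion genes RAB3A and RAB26 fell, and RAB3D rose. RAB3 proteins sit on secretory vesicles, RAB3A mainly in neurons and endocrine cells and RAB3D in exocrine and other secretory cells. RAB3A (ENSG00000105649, GRCh38 chromosome 19, 18196784 to 18204074, minus strand) was at 4.19, 4.20 and 3.14 FPKM in the controls and 0.646, 0.977 and 1.04 FPKM after knockdown, from 79 to 114 reads per control and 15 to 27 reads per knockdown library. The means were 3.84 ± 0.606 and 0.889 ± 0.213 FPKM, the lowest control lay far above the highest knockdown library, and the log2 change of -1.36 (SE 0.114, adjusted p = 9.21e-06) was the largest of any RAB gene in either direction. On the recovered reads voom gave RAB3A a change of -2.10. RAB3D was at 5.09, 4.99 and 4.99 FPKM in the controls and 6.12, 7.77 and 6.68 FPKM after knockdown (change 0.38, SE 0.0795, adjusted p = 0.00247). RAB26, which acts in the maturation of secretory granules and at synaptic vesicles, was at 7.25, 5.86 and 6.66 FPKM in the controls and 4.17, 3.82 and 3.52 FPKM after knockdown (change -0.65, SE 0.0844, adjusted p = 1.35e-04). RAB27A and RAB27B, which dock secretory granules and exosomes, did not pass. RAB27A was at 4.42 ± 0.297 FPKM in the controls and 3.83 ± 0.251 FPKM after knockdown (change -0.17, adjusted p = 0.0739), and passed without knockdown replicate 2, under quantile normalization and once the length trend was removed (changes -0.21, -0.20 and -0.19, adjusted p = 0.0272, 0.0289 and 0.0304, range over all alternatives 0.0272 to 0.762). RAB27B was at 5.66 ± 0.125 and 6.17 ± 0.544 FPKM (change 0.10, adjusted p = 0.226), and was called higher with a common sum (0.25, adjusted p = 0.0246). RAB8A was at 3.33 ± 0.288 and 3.25 ± 0.182 FPKM, with an interval of -0.19 to 0.14 for its change.

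The promoters of RAB3A and RAB3D are shown because these paralogs moved apart more than any other pair. RAB3A is at chr19:18203993-18204292 and RAB3D at chr19:11339608-11339907, both on the minus strand of GRCh38.p14 in RefSeq, with the GC box in capitals.
RAB3A: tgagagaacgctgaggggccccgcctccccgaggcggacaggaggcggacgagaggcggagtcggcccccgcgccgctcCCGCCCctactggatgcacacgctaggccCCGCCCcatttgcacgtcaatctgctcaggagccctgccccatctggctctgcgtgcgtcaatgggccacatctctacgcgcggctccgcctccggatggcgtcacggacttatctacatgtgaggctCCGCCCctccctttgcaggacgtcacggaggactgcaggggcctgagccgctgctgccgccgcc
RAB3D: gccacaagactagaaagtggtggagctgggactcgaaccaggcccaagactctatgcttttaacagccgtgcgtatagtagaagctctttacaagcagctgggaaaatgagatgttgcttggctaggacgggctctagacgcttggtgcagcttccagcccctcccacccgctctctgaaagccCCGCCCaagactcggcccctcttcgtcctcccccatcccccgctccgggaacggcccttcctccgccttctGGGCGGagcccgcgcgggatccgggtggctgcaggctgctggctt
The window of RAB3A held 3 GC boxes, which began at positions -171, -142 and -14 from the start. That of RAB3D held 2, which began at -66 and at 5. G and C made up 69.7% of the RAB3A window and 62.0% of the RAB3D window. Exons of RAB3A overlap those of MPV17L2 on the opposite strand over 9.08% of their length, and 20.5% of the RAB3D exon length lies opposite AC011472.3, so that reads of these neighbours cannot be told apart where counting ignores strand.

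Of the genes placed elsewhere, RAB40C, which joins a SOCS box ubiquitin ligase, was lower, at 11.1, 10.0 and 10.6 FPKM in the controls and 8.41, 7.83 and 9.34 FPKM after knockdown (change -0.28, adjusted p = 0.00620). With a common sum the change was -0.13 (adjusted p = 0.125, range over all alternatives 0.00298 to 0.125). Its relative RAB40B did not pass (change -0.02, adjusted p = 0.852). RAB28, a RAB of the cilium and of intraflagellar transport, was at 5.88 ± 0.475 FPKM in the controls and 6.80 ± 0.615 FPKM after knockdown and missed the threshold (change 0.18, adjusted p = 0.0747). RAB28 was called higher with a common sum, with the length trend removed and without knockdown replicate 3 (adjusted p = 0.00837, 0.00642 and 0.0268). RAB23, a negative regulator of Hedgehog signalling, was at 1.83 ± 0.268 and 2.47 ± 0.549 FPKM (change 0.29, adjusted p = 0.0593), and was called higher with a common sum, with voom, and without control replicate 1 or knockdown replicate 1 (adjusted p 0.0124 to 0.0455). Of its exon length 57.7% lies opposite exons of BAG2.

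The 6 RAB genes under the filter were RAB4B, RAB6B, RAB17, RAB19, RAB33A and RAB43. Their levels in the 6 libraries were between 0 and 0.478 FPKM, from at most 31 reads. RAB17, an epithelial RAB of recycling to the apical surface, was at 0.400, 0.386 and 0.328 FPKM in the controls and 0.226, 0.204 and 0.121 FPKM after knockdown. RAB33A had 3, 3 and 5 reads in control libraries and 0, 1 and 0 reads in knockdown libraries. In the fit with no filter both were lower (change -0.21, adjusted p = 0.0205 for RAB17, and -0.31, adjusted p = 0.00518 for RAB33A), and the other 4 did not pass.

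Summed over compartments, recycling genes took a smaller and secretory genes a larger share of all RAB FPKM after knockdown. Since FPKM is per length, levels of different genes can be added on this scale. The 10 recycling genes summed to 259, 257 and 265 FPKM in the controls and 229, 213 and 230 FPKM after knockdown, and the 10 secretory genes to 219, 211 and 215 FPKM in the controls and 267, 272 and 268 FPKM after knockdown. In the controls every recycling sum was above every secretory sum, and in the knockdown libraries the order was the reverse. The recycling share of all RAB FPKM went from 29.6% ± 0.222 to 24.8% ± 0.797 and the secretory share from 24.5% ± 0.456 to 29.8% ± 0.688, values that no rescaling of a library can change. These sums rest on few genes, mainly RAB25 on the recycling side and RAB10 and RAB38 on the secretory side. The reversal also depends on placing RAB38, which serves lysosome-related organelles, and its relative RAB32 in the secretory group. RAB38 had means of 72.5 FPKM in the controls and 97.3 FPKM after knockdown, and RAB32 of 45.5 and 54.4 FPKM. Without RAB38 alone the secretory sum would lie below the recycling sum in every library of both groups. Without RAB32 alone this would hold for the means of both groups, but not for every library. The ER and Golgi share was 24.8% ± 0.556 in control and 25.8% ± 0.274 in knockdown libraries, and the endosomal share 18.8% ± 0.123 and 17.6% ± 0.323. All 52 genes together summed to 878 ± 7.71 FPKM in the controls and 904 ± 11.9 FPKM after knockdown.

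**Figure D3:**
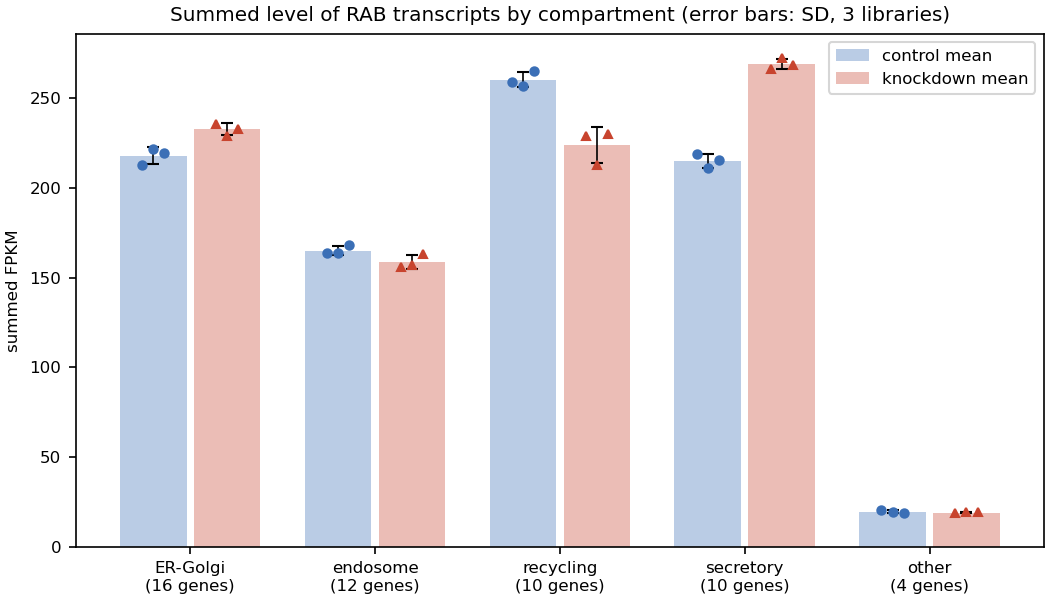
Summed FPKM of the RAB genes of each compartment; bars are means of 3 libraries with the SD, and points the single libraries (blue circles control, red triangles knockdown). The recycling sum is 260 ± 4.19 in control and 224 ± 9.93 in knockdown libraries, the secretory sum 215 ± 3.91 and 269 ± 2.97.

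The balance between close paralogs was tested as the log2 ratio of the values of the paralogs in each library, with an exact two-sided permutation test for which 3 libraries against 3 allow no p below 0.1. Of 15 pairs with both members tested, 11 reached that p (0.136 after adjustment over the 15), so none could pass a threshold of 0.05. That p is reached whenever the groups do not overlap, as was so for 65.1% of all single genes tested. The share over other pairs of genes was not computed, so the count is not a result about RAB paralogs. The ratio of RAB3A to RAB3D was -0.32 ± 0.182 in control and -2.06 ± 0.130 in knockdown libraries, a difference of -1.73. The ratio of RAB5A to RAB5C was -0.33, -0.44 and -0.39 in control and 0.29, 0.84 and 0.33 in knockdown libraries, so that RAB5C was the more abundant in every control and RAB5A in every knockdown library. The ratio of RAB5B to RAB5C went the same way, with a difference of 0.65. RAB7A gained on RAB7B by 0.59, although both were lower. RAB11A and RAB11B each gained on RAB25, by 0.29 and 0.32, while their own ratio differed by -0.04 with overlapping groups (exact permutation p = 0.9). RAB27A lost to RAB27B by 0.27 on this scale and RAB8A to RAB8B by 0.29, and in both pairs the groups did not overlap.

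**Figure D4:**
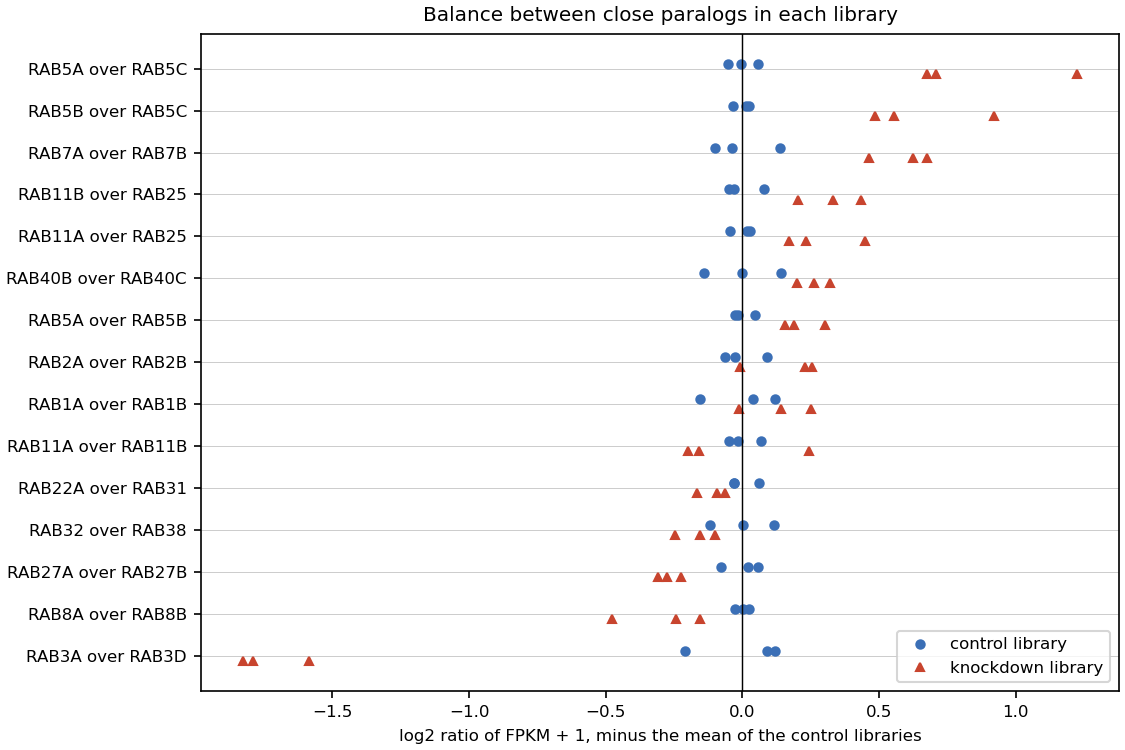
Log2 ratio of FPKM + 1 between close RAB paralogs in each library, with the mean of the control libraries subtracted; blue circles are control and red triangles knockdown libraries. The ratio of RAB5A to RAB5C lies 0.87 higher and that of RAB3A to RAB3D 1.73 lower in the knockdown.

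Gene length moved with the changes, in the RAB genes as in all genes. The median change of all genes went from -0.19 in the decile with the shortest exon sequence to 0.18 in the longest. Spearman's rho of exon length and change was 0.32 over the 46 RAB genes and 0.30 over 11209 genes, which are not independent replicates and share the same libraries. RAB genes called higher had a median exon length of 4657 bases and those called lower of 2761 bases. RAB32, RAB38 and RAB20 rose although their exon lengths of 1217, 1465 and 1518 bases are among the shortest. With the length trend removed 17 RAB genes were higher and 12 lower, against 28.6% and 28.2% of all genes, and RAB6A, RAB38, RAB10 and RAB5A had changes of 0.67, 0.62, 0.51 and 0.50, and RAB3A, RAB7B, RAB26 and RAB25 of -1.17, -0.71, -0.51 and -0.34. The GENCODE length lay within 10% of that implied by reads and FPKM for 85.4% of genes. RAB7A and RAB18 were among the exceptions, with more reads than their listed lengths imply, so their changes in this setting are uncertain. The part of length in these results beyond this setting was not tested.

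**Figure D5:**
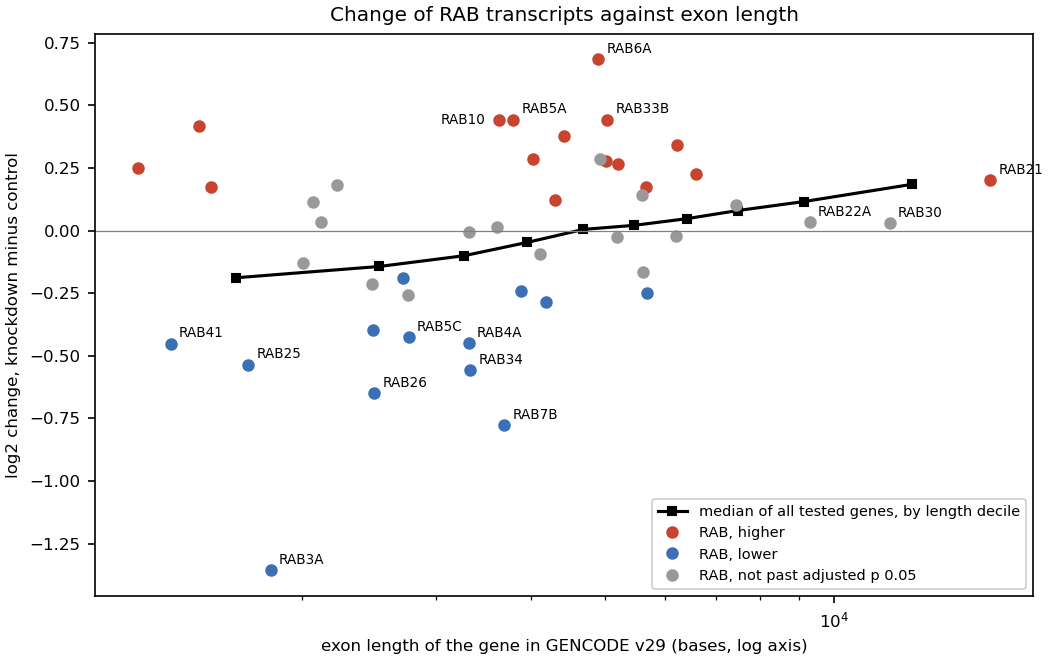
Log2 change (knockdown minus control) of the 46 tested RAB genes against their exon length in GENCODE v29 (log axis, bases), with the median of all tested genes in each length decile as black squares. RAB38, RAB32 and RAB20 lie at the short end and above 0, and RAB3A, RAB7B, RAB26 and RAB34 far below the line of medians.

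The genes that act on RAB proteins were followed in lists of textbook members. For prenylation and membrane cycling, 3 of 8 tested genes were called, each as higher (37.5%, beside 57.4% of all genes called in either direction; median 0.11). CHM, which encodes a RAB escort protein, rose from 2.88, 2.54 and 2.71 FPKM to 4.02, 5.36 and 4.50 FPKM (change 0.60, adjusted p = 3.79e-04). RABGGTB, the catalytic subunit of the geranylgeranyl transferase, rose from 18.6 ± 0.0542 to 22.3 ± 1.39 FPKM, and the RAB chaperone RABIF from 5.74 ± 0.410 to 7.33 ± 0.214 FPKM. GDI2, which extracts RAB proteins from membranes, was abundant, at 112 ± 2.54 FPKM in the controls, and did not pass (change 0.07, adjusted p = 0.263).

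Of 49 exchange factors tested 17 were higher and 9 lower (34.7% and 18.4%, beside 29.5% and 27.8% of all genes; median 0.10). The largest falls were those of RIN1, an exchange factor of RAB5, from 10.0, 9.87 and 9.35 FPKM to 6.41, 4.64 and 5.13 FPKM (change -0.76, adjusted p = 9.52e-05), and of SH3BP5L, which is related to an exchange factor of RAB11, from 9.03 ± 0.290 to 5.38 ± 0.150 FPKM (change -0.65). Subunits of TRAPP, the complex that loads RAB1 and RAB11, went both ways. TRAPPC6B rose from 1.28 ± 0.0802 to 3.59 ± 0.741 FPKM (change 1.00, adjusted p = 4.97e-05) and TRAPPC10 from 1.38 ± 0.182 to 2.41 ± 0.561 FPKM, while TRAPPC1 fell from 42.3 ± 0.941 to 30.0 ± 3.66 FPKM and TRAPPC6A, the paralog of TRAPPC6B, from 15.0 ± 2.09 to 11.0 ± 1.09 FPKM. TRAPPC6A did not pass with the length trend removed (change -0.16, adjusted p = 0.129, its highest over the alternatives). DENND2C and RGP1, part of an exchange factor of RAB6, rose by 0.41 and 0.38. With the length trend removed 10 exchange factors were higher and 12 lower, beside 28.6% and 28.2% of all genes. Without control replicate 1 the count of higher exchange factors was 10, beside 2872 of all 11214 genes.

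Among 28 TBC domain proteins tested 11 were higher and 8 lower (39.3% and 28.6%, beside 29.5% and 27.8% of all genes; median 0.11). With the length trend removed 5 were higher and 9 lower, beside 28.6% and 28.2% of all genes. TBC1D5, which acts on RAB7 with retromer, rose from 2.33, 2.24 and 2.28 FPKM to 3.82, 4.20 and 3.56 FPKM (change 0.56, adjusted p = 1.31e-04), and TBC1D14, TBC1D9B and TBC1D13 rose by 0.41, 0.36 and 0.32. TBC1D1, which acts on RAB10 in the transport of glucose transporters, fell from 2.61, 2.40 and 2.75 FPKM to 1.63, 1.20 and 1.23 FPKM (change -0.61, adjusted p = 2.57e-04). The more abundant TBC1D4 went the other way, from 6.61 ± 0.0828 to 8.08 ± 0.651 FPKM (change 0.25, adjusted p = 0.00850). TBC1D10B, TBC1D17 and TBC1D10A fell by 0.42, 0.40 and 0.31 on the log2 scale.

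Of 43 effectors tested 21 were higher and 3 lower (48.8% and 6.98%, median 0.14), beside 29.5% and 27.8% of all genes. With the length trend removed the counts were 18 and 8, beside 28.6% and 28.2% of all genes. With a common sum they were 26 and 1, beside 43.4% and 16.4% of all genes. Without knockdown replicate 2 they were 20 and 6, beside 3250 and 3212 of all 11214 genes. ACAP2, an ARF6 GTPase-activating protein bound by RAB35, rose from 8.26, 7.30 and 8.04 FPKM to 15.6, 20.3 and 14.8 FPKM (change 1.00, adjusted p = 2.93e-05). The motor MYO5B, which pulls RAB11 vesicles, rose from 2.48, 2.44 and 2.07 FPKM to 5.00, 5.66 and 5.50 FPKM (change 0.94, adjusted p = 8.66e-06), and RAB11FIP1, a RAB11 adaptor that also binds RAB25, from 2.32, 2.23 and 2.55 FPKM to 4.58, 6.79 and 4.59 FPKM (change 0.89, adjusted p = 1.80e-04). MYO5A, the motor for melanosomes and secretory granules, rose from 3.07 ± 0.167 to 5.75 ± 0.660 FPKM (change 0.73). The RAB6-binding kinesin KIF20A, which is made for mitosis, fell from 31.9 ± 0.405 to 23.4 ± 0.755 FPKM (change -0.43, adjusted p = 3.66e-05), MICALL2 fell by 0.26 and EHBP1L1 by 0.17 on the log2 scale. MICALL2 did not pass with a common sum (change -0.15, adjusted p = 0.147, its highest over the alternatives) or without control replicate 2 or knockdown replicate 3. EHBP1L1 had a change of -0.01 with a common sum (adjusted p = 0.871, its highest over the alternatives).

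Of 7 RAB-like and large atypical genes tested, RABL6 fell from 22.7 ± 0.146 to 14.5 ± 0.560 FPKM (change -0.62, adjusted p = 6.22e-06) and RASEF, a RAB with an EF hand domain, rose from 3.66 ± 0.344 to 4.79 ± 0.463 FPKM (change 0.31, adjusted p = 0.00920). The other 5 did not pass. The list thus had 14.3% higher and 14.3% lower, beside 29.5% and 27.8% of all genes.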

How the data were processed

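RNA was taken up in TRIzol and made into libraries by a TruSeq protocol, per the labels' protocols. HISAT2 2.2.1 and the GRCh38 build are named in the submitters' processing notes. How reads were counted, on which annotation and with what use of strand is not stated there. The authors deposited 1 table of FPKM values for the 6 libraries, in which the lowest mean of any gene was 0.1 FPKM. Whole reads were recovered for all 12829 genes from the steps of the FPKM values (tolerance 0.004 reads) and served for depth and for an alternative test.

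Knockdown was compared with control by limma 3.58.1 (R 4.3.3) on log2(FPKM + 1), with a mean-variance trend and group as the only factor, over 11214 genes whose mean reached 0.5 FPKM. Tests were two-sided, p-values were adjusted by Benjamini and Hochberg over all genes, and the threshold was 0.05. Exon lengths, places and overlaps came from GENCODE v29 and promoters from RefSeq (GRCh38.p14). Alternatives were pseudocounts of 0.1 and 0.5, no filter, a filter at 5 FPKM, a common FPKM sum, quantile normalization, voom on recovered reads, removal of the trend over gene length, a replicate block, and leaving out each library. Their use on the partner lists and on the compartment shares was added after the data were seen.

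The RAB genes, compartments and lists were chosen with earlier results of these data known. Values in every library are given for the most abundant member of each compartment and for up to 4 rises and 4 falls past the threshold, with their paralogs, and of each partner list up to 4 rises and 4 falls are named. TBC1D4 was added beside TBC1D1. The labels do not say whether replicate numbers pair libraries. Deviations of same-numbered libraries from their group means correlated by -0.07, -0.04 and 0.02. This gave no sign of pairing, but deviations within groups of 3 libraries cannot decide the question.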

Additional observations from a re-analysis of the deposited data

How the results depend on the processing

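Counts of RAB genes higher and lower (16 and 13) stayed within 1.5 times in every setting. By compartment, a common sum gave 7 endosomal genes higher in place of 4, and 2 higher and 0 lower among the genes placed elsewhere. In that last group voom, removal of the length trend and the replicate block each gave 1 higher. A filter at 5 FPKM left 1 secretory gene lower, since RAB3A fell under it. Median changes with a common sum were 0.17 for all RAB genes, 0.14 at the ER and Golgi, 0.20 at endosomes, -0.069 in recycling, 0.33 in secretion and 0.20 elsewhere. With the filter at 5 FPKM they were 0.27 in secretion and -0.052 elsewhere. Leaving out 1 library gave 2 to 4 endosomal, 1 to 2 recycling and 0 to 1 other genes higher. Of the partner lists, the length trend removed gave 10 exchange factors and 5 TBC proteins higher and 8 effectors lower, the filter at 5 FPKM gave 9 exchange factors, 5 TBC proteins, 13 effectors and 0 RAB-like genes higher and 4 TBC proteins lower, and a common sum gave 5 prenylation genes higher and 5 exchange factors, 4 TBC proteins and 1 effector lower. Voom and the replicate block each gave 5 effectors lower. Over all genes, a common sum gave 43.4% higher and 16.4% lower, and the length trend removed 28.6% and 28.2%. The filter at 5 FPKM gave 2219 higher and 2292 lower of 6842 genes. Of 11214 genes, voom gave 3425 higher and 3184 lower, and the replicate block 3167 and 3024. Leaving out 1 library gave between 2779 and 3250 higher.

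No called gene reversed. Among RAB genes not called, the change of RAB1A was 0.16 with a common sum, 0.030 with quantile normalization and 0.081 with the length trend removed. With a common sum RAB1B was at 0.031, RAB8A at 0.10 and RAB40B at 0.071, and with the length trend removed RAB1B was at 0.041, RAB22A at -0.089 and RAB30 at -0.13. RAB2B was at -0.021 with quantile normalization. Leaving out each library gave ranges of -0.040 to 0.039 for RAB1A, -0.048 to 0.056 for RAB2B, -0.079 to 0.015 for RAB8A, -0.026 to 0.085 for RAB9A, -0.00051 to 0.066 for the RAB22A log2 change, -0.015 to 0.093 for RAB30, -0.17 to 0.0095 for RAB36, -0.11 to 0.030 for RAB40B and -0.18 to 0.042 for the ratio of RAB11A to RAB11B. The cause was not tested. The replicate block gave 14 higher and 14 lower RAB genes. Under it RAB8B, RAB14 and RAB20 were not called (adjusted p = 0.0542, 0.0644 and 0.0509), and RAB13 and RAB28 were (0.0401 and 0.0433). Few reads limit RAB41 and the 6 genes under the filter.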
